A study of Rattus norvegicus with 6 samples.

Results

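Transcripts of 6 genes that are active mainly in white blood cells, Coro1a, Slfn2, Cd48, Ptprc, Klrk1 and Cd4, were followed in rat liver on Affymetrix rat genome oligonucleotide arrays. They were taken as every probe set annotated with 1 of these symbols alone, which gave 8 of the 8799 probe sets on the array and 6 of its 4736 annotated genes. Ptprc had 3 probe sets and each other gene had 1. The 6 genes were picked because earlier results of these same data put them among the leukocyte transcripts with higher values in NASH, so their NASH minus Control differences are given as a description and are not tested.

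The NASH group held 3 liver samples of male Sprague Dawley rats given a liquid diet with 70% corn oil at 220 kcal a day, scaled to metabolic body weight. The Control group held 3 liver samples of such rats on a liquid diet with 5% corn oil at 187 kcal on the same basis. Both groups were fed by total enteral nutrition for 3 weeks, and fat share and energy supply differed together, so that their effects cannot be told apart. The labels name neither the rats' age nor whether each array had its own animal, so spreads and p-values cover these samples, whose differences may be technical.

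Ptprc encodes CD45, the membrane tyrosine phosphatase found on nearly all nucleated blood cells, and its transcript is spliced into several isoforms. Coro1a encodes coronin 1A, an actin regulator of haematopoietic cells that lymphocytes need for migration and survival. Slfn2 belongs to the interferon-inducible schlafen family, and in mice it keeps T cells and monocytes in a resting state. Cd48 is a surface ligand of the receptors CD2 and CD244 on many leukocytes, Klrk1 encodes NKG2D, the activating receptor of natural killer and cytotoxic T cells, and Cd4 is the co-receptor of helper T cells that rat macrophages also carry. The liver normally holds resident macrophages (Kupffer cells), natural killer cells and T cells, and steatohepatitis is known for an added infiltrate. In whole liver, more cells of a type and more RNA per cell cannot be told apart.

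The promoter stretches of the genes are shown because these genes share a lineage and were set side by side for it. RefSeq's promoter table (build GRCr8) matched 5 of the 6 genes. The 150 bases before each annotated start are given below 5′ to 3′ on the gene's own strand, for Coro1a at chr1:190731104-190731253 (minus strand), Slfn2 at chr10:68450711-68450860 (plus), Cd48 at chr13:86717844-86717993 (plus), Ptprc at chr13:52259747-52259896 (minus) and Klrk1 at chr4:164778383-164778532 (minus). Capitals mark matches, on either strand, to CAGGAAGT, the long form of the ETS factor motif, or to GAAA, any 2 bases and GAAA, the core of the interferon-stimulated response element.
Coro1a: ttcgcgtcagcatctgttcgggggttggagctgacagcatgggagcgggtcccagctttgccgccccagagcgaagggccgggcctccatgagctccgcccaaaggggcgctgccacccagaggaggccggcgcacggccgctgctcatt
Slfn2: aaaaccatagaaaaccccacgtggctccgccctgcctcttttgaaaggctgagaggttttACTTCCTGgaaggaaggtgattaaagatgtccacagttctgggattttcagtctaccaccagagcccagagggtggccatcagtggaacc
Cd48: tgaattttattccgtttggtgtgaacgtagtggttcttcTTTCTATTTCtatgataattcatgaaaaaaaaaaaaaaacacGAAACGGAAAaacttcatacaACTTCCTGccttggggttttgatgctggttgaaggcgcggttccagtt
Ptprc: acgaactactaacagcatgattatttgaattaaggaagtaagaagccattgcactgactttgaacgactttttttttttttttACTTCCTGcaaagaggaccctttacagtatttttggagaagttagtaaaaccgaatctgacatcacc
Klrk1: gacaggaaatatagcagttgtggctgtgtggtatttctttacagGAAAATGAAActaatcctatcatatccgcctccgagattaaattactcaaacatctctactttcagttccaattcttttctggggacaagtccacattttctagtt
The ETS letters stood in the promoters of Slfn2, Cd48 and Ptprc, in each case as ACTTCCTG on the printed strand, 90 to 83, 48 to 41 and 67 to 60 bases before the start. Among all 33469 promoters of 300 bases in that table (250 before and 50 after the start), 3.05% held this motif. The interferon element letters stood at 2 places in Cd48 and at 1 in Klrk1, and 3.92% of all promoters held them. Both motifs were chosen after the sequences had been read, no match overlapped another, and a match describes letters and not a bound site.

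The livers gave strong hepatocyte signals in both groups. Of 23 hepatocyte genes listed, 21 were on the array and all 21 lay above the intensity filter, and their summed deposited signal was 53460 to 73255 in NASH and 65891 to 87852 in Control. Sums of other lists below are of quantile-normalized signals. Trimmed mean signals of the deposited arrays ran from 73.6 to 107 in NASH and from 88.3 to 117 in Control. The ratio of 3′ to 5′ actin signal, a sign of RNA degradation, was 5.07 in Control 3 and 2.15 to 2.93 in the other 5 arrays, and the Gapdh ratio was 2.04 in Control 3 and 1.08 to 1.29 in the others. A two-sided exact permutation test between the diets gave p = 0.7 for actin and 0.4 for Gapdh, but 3 against 3 cannot go below 0.1. NASH 2 carried transcripts of brown fat and skeletal muscle. The uncoupling protein gene Ucp1 had a deposited signal of 1100 there, against at most 15.97 in the other 5 arrays, and the muscle actin gene Acta1 one of 1322, against at most 18.9. The members' differences are therefore given with and without NASH 2 and Control 3, and the medians of lists without an array where that turned the sign or moved the value by over 1.5 times. Values below are log2(signal + 2.21) of quantile-normalized signals unless called deposited, and differences are NASH minus Control on that scale, which understates the change of dim probe sets.

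The 8 probe sets had higher means in NASH in every case, but the size differed by gene and by array. Slfn2 and Coro1a had differences above 1.4, Cd48 one of 0.84, and Klrk1, Cd4 and the brighter Ptprc probe sets differences of 0.28 to 0.40. The median difference over the 6 genes, each taken at its probe set with the highest mean, was 0.62 (−0.02 over the 5244 probe sets tested). The 3 NASH values lay wholly above the 3 Control values for Slfn2, Cd4 and 1 Ptprc probe set, 3 of 8 probe sets. Over all probe sets tested, groups lay apart in this direction for 6.54% and in either direction for 14.3%, and since the genes were chosen on this contrast nothing is read from that comparison. On deposited values without scaling, and on values scaled to a common trimmed mean, only Slfn2 kept its groups apart.

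**Figure D1:**
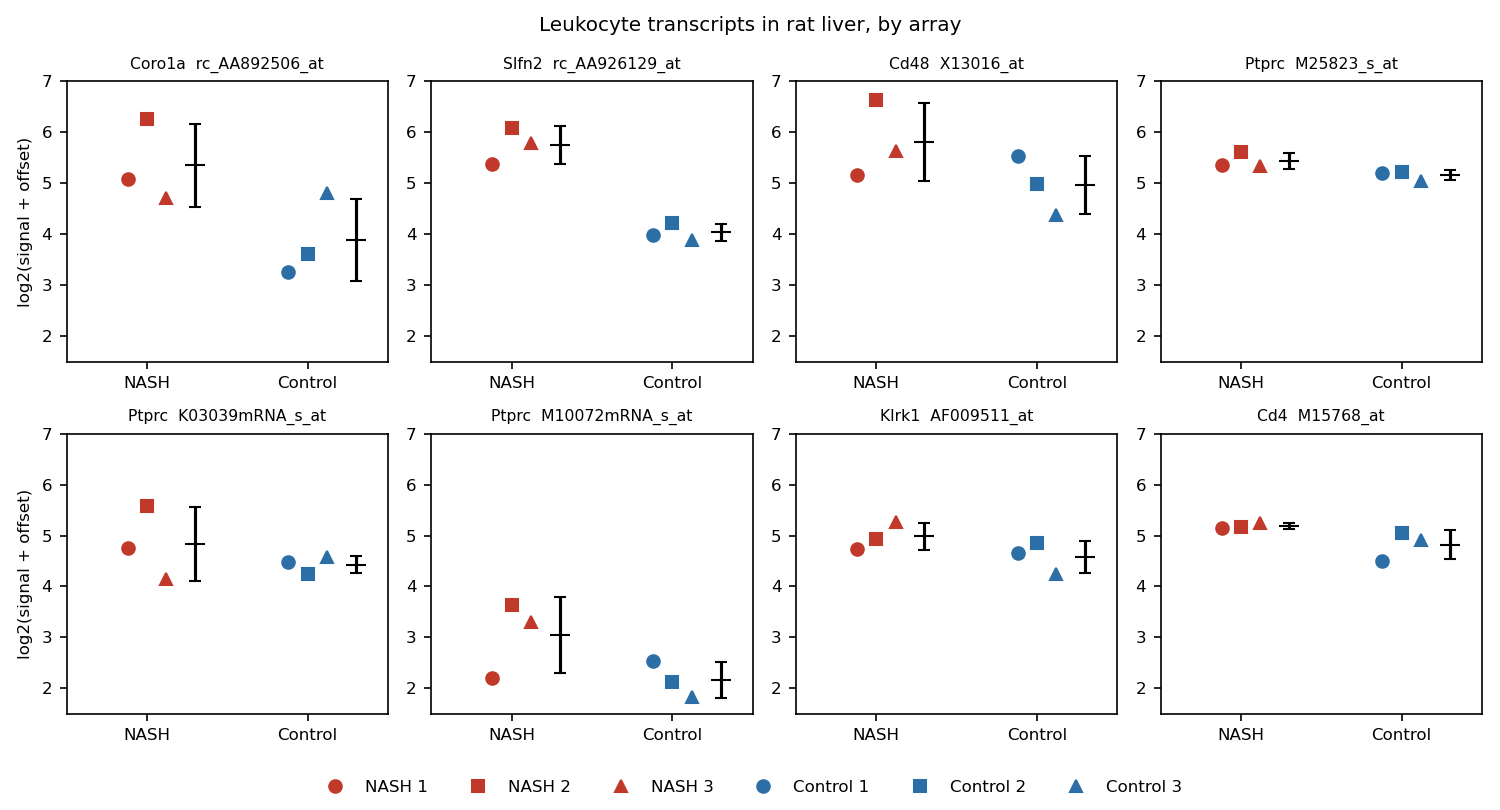
Each panel plots 1 probe set, with log2(signal + offset) on the vertical axis, the 3 NASH arrays (red) left of the 3 Control arrays (blue), the marker shape giving the replicate number and the black bar the group mean ± SD. Slfn2 has its groups well apart, the square of NASH 2 is the top point for Coro1a, Slfn2, Cd48 and all 3 Ptprc probe sets, and Klrk1 and Cd4 have their top point in NASH 3.

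Slfn2 had the largest difference, and the most even one for its size. Its values were 5.37, 6.10 and 5.79 in NASH 1, 2 and 3, against 3.99, 4.22 and 3.89 in Control 1, 2 and 3. In deposited signals these were 41.0, 68.2 and 38.9 in NASH and 15.3, 18.1 and 10.9 in Control. Each NASH array was above each Control array. NASH averaged 5.75 ± 0.36 and Control 4.04 ± 0.17 (SD, n = 3 each), a difference of 1.72 ± 0.26 (standard error from the limma fit), or 3.29-fold. Leaving out any 1 array kept it between 1.56 (without NASH 2) and 1.91 (without NASH 1). An offset of 16 before the logarithm brought it to 1.17.

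Coro1a, the actin regulator, had a difference of similar size that was far less even. Its values were 5.09, 6.27 and 4.72 in NASH 1, 2 and 3, against 3.25, 3.61 and 4.80 in Control 1, 2 and 3. NASH 2 was the highest array, and Control 3 lay just above NASH 3, so that the groups overlapped. NASH averaged 5.36 ± 0.81 and Control 3.89 ± 0.81 (SD, n = 3 each), a difference of 1.47 ± 0.52 or 2.76-fold. It was 1.01 without NASH 2 and 1.90 without Control 3, the array with the highest 3′ to 5′ ratio, 0.89 without both Control 2 and NASH 2, and 0.93 with an offset of 16. The Control mean lay below the filter value of 3.94, so this probe set passed the filter through its NASH values. Deposited signals were only 7.89 and 11.6 in Control 1 and 2, so the fold change rests on dim Control values.

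Cd48, the ligand of CD2 and CD244, was high in NASH 2 above all. Its values were 5.15, 6.64 and 5.64 in NASH 1, 2 and 3, against 5.53, 4.996 and 4.39 in Control 1, 2 and 3. NASH 1 lay below Control 1, and Control 3 was the lowest array. NASH averaged 5.81 ± 0.76 and Control 4.97 ± 0.57 (SD, n = 3 each), a difference of 0.84 ± 0.43. It was 0.43 without NASH 2, 0.54 without Control 3 and 0.14 without both, the last a fit added after seeing the data.

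The 3 Ptprc probe sets, for the CD45 phosphatase, did not give the same pattern across arrays. M25823_s_at, the brightest, had values of 5.36, 5.61 and 5.35 in NASH 1, 2 and 3, against 5.21, 5.22 and 5.05 in Control 1, 2 and 3. The groups lay apart by a narrow margin after normalization, with a difference of 0.28 ± 0.19. In deposited signals they overlapped, at 28.4 to 48.3 in NASH and 29.1 to 39.6 in Control, and without scaling the difference was 0.12.

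K03039mRNA_s_at read 4.75, 5.59 and 4.14 in NASH 1, 2 and 3, against 4.47, 4.24 and 4.58 in Control 1, 2 and 3. NASH 2 was the highest and NASH 3 the lowest of all 6 arrays, and the difference of 0.40 ± 0.37 became 0.016 without NASH 2. M10072mRNA_s_at was dim, in the lowest 15.5% of probe sets by mean and below the filter, with deposited signals of 2.53, 11.3 and 5.48 in NASH and 3.46, 3.20 and 1.01 in Control. Its mean log2 value was 3.05 ± 0.75 in NASH and 2.16 ± 0.35 in Control (SD, n = 3 each), and NASH 1 lay below Control 1. It was the only 1 of the 8 probe sets under the filter, and its difference of 0.89 shrank to 0.30 with an offset of 16. By the array maker's naming, the suffix _s_at marks probes that can match more than 1 transcript, and which CD45 isoforms each set reads was not analysed here.

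Klrk1 and Cd4, receptors of cytotoxic and helper lymphocytes, had small differences, and NASH 2 was the highest array for neither. Klrk1 had values of 4.74, 4.94 and 5.27 in NASH 1, 2 and 3, against 4.65, 4.86 and 4.24 in Control 1, 2 and 3. NASH 1 lay below Control 2, and Control 3 stood lowest. The means were 4.98 ± 0.27 in NASH and 4.58 ± 0.32 in Control (SD, n = 3 each), a difference of 0.40 ± 0.26 that was 0.43 without NASH 2, 0.23 without Control 3 and 0.27 with an offset of 16.

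Cd4 had values of 5.14, 5.17 and 5.25 in NASH 1, 2 and 3, against 4.4998, 5.05 and 4.92 in Control 1, 2 and 3. The NASH arrays were close together, at 5.19 ± 0.06, while Control spread over 4.82 ± 0.29 (SD, n = 3 each), with Control 1 lowest. The difference was 0.36 ± 0.22, and 0.20 without Control 1. In deposited signals the groups overlapped, at 26.5 to 35.8 in NASH and 23.2 to 33.1 in Control.

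**Figure D2:**
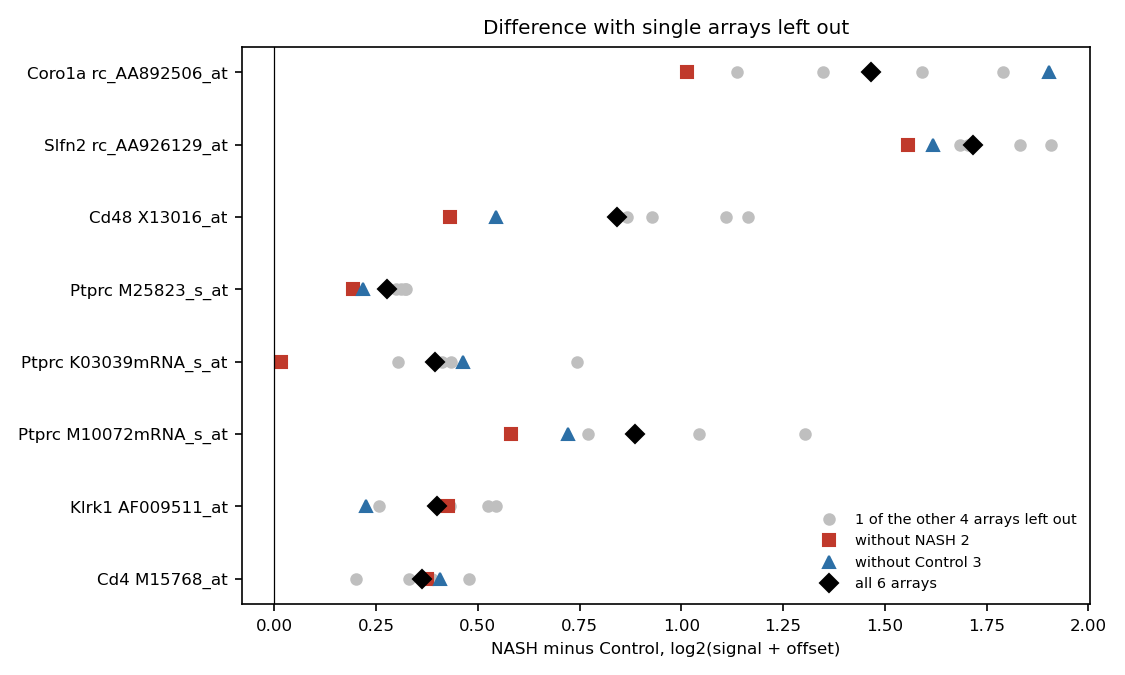
The horizontal axis is the NASH minus Control difference in log2(signal + offset) for each of the 8 probe sets, with all 6 arrays (diamond), without NASH 2 (square), without Control 3 (triangle) and without each of the other 4 arrays in turn (grey). Every point lies above 0, and the square is leftmost for 6 probe sets but not for Klrk1 and Cd4.

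NASH 2 was the highest array for 6 of the 8 probe sets, while it was the highest for 16.2% of all probe sets tested. Its excess over the mean of the other NASH arrays was 1.37 for Coro1a, 1.24 for Cd48 and 1.14 for the K03039 set of Ptprc, above those of 97.94%, 97.73% and 97.41% of probe sets tested. The excess was 0.52 for Slfn2, and −0.03 and −0.07 for Cd4 and Klrk1. Averaged over the 6 genes and centred on the mean of all arrays, the level was 0.14, 0.79 and 0.34 in NASH 1, 2 and 3, against −0.48, −0.34 and −0.45 in Control 1, 2 and 3. The 6-gene mean lay higher in each NASH array than in any Control array, which choosing the genes on this contrast favours. Singly, 3 of the 6 genes had their groups apart, and 1 on values without scaling. The mean difference was 0.84, or 0.67 without NASH 2 and 0.82 without Control 3. The median of 0.62 was 0.43 without NASH 2 and 0.48 without Control 3. Control 3 was lowest for 4 of the 6 genes at their brightest probe set, against 21.4% of all probe sets tested. Since the genes were chosen for higher values in NASH, nothing is read from the shares over all probe sets given here.

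Summed markers of brown fat and muscle were highest in NASH 2. Of 7 brown fat genes listed 4 were on the array, and their summed signal was 106 to 2003 in NASH, with the top value in NASH 2, and 42.3 to 62.1 in Control. Both other NASH arrays, at 106 and 140, were also above every Control array, and the median difference of the 3 measured genes was 2.17, or 1.14 without NASH 2. In NASH 1 and 3 the brightest of these genes was Cidea, with deposited signals of 83.3 and 57.8, against 19.8 to 43.4 in Control. Dio2, below the filter, was not highest in NASH 2, with deposited signals of 6.38 there and 9.84 in NASH 1. Of 19 skeletal muscle genes 16 were on the array, with sums of 257 to 3024 in NASH, again topped by NASH 2, and 210 to 362 in Control, and a median difference of 0.55 (−0.06 without NASH 2). Of 13 adipose genes 11 were on the array, with sums of 2391 to 4005 in NASH and 2390 to 3427 in Control, and a median difference of 0.30 (0.09 without NASH 2). Fabp4, a fat cell binding protein, had deposited signals of 1.55, 1044 and 1.27 in NASH 1, 2 and 3, against 0.80 to 4.47 in Control. The part of these tissues in the leukocyte values of NASH 2 was not tested, and the differences without NASH 2 are given above.

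**Figure D3:**
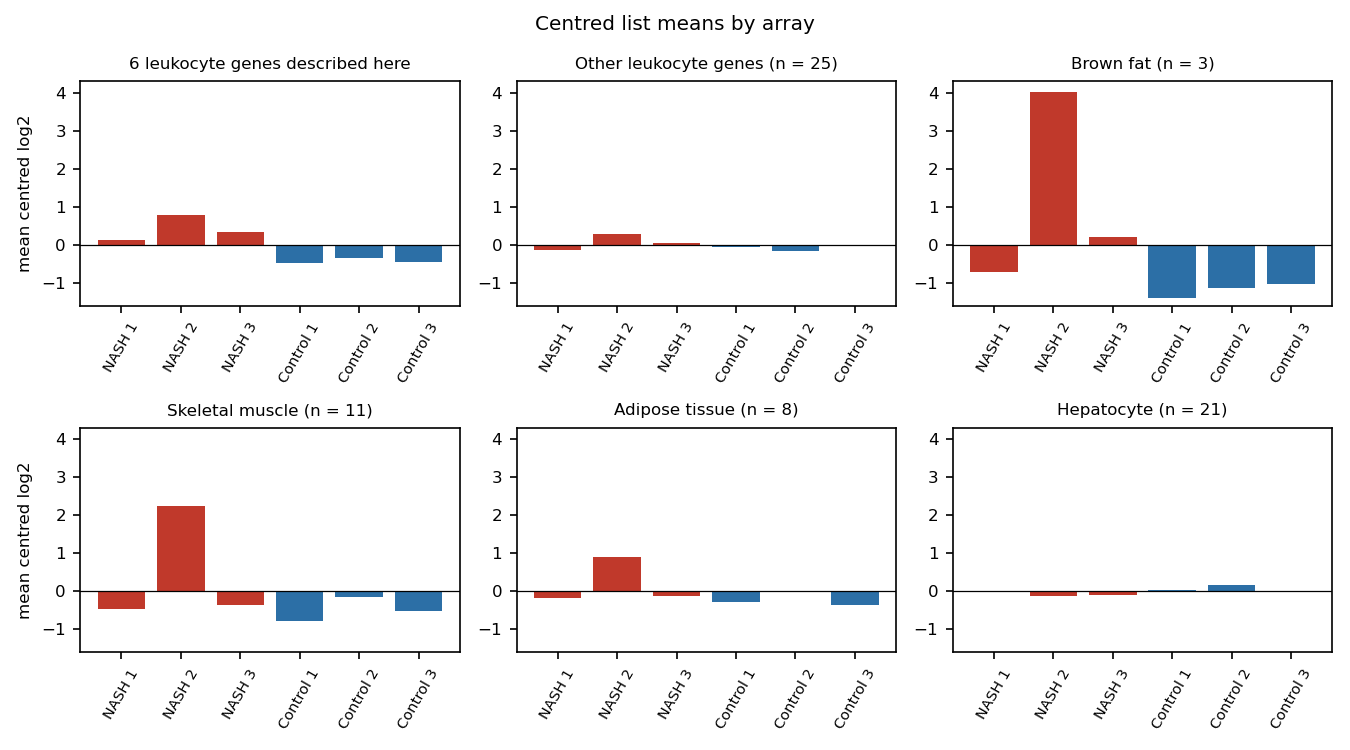
Bars give the mean centred log2 value of each gene group in each array, NASH in red and Control in blue, for the 6 genes, 25 other leukocyte genes and 4 tissue lists, with n the number of genes above the filter. The 6 genes reach 0.79 in NASH 2, where brown fat genes reach 4.04 and skeletal muscle genes 2.24, while hepatocyte genes stay between −0.13 and 0.17.

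The genes whose pattern over the 6 arrays was most like each member were found by the root mean square difference between centred log2 values, as a description. For Coro1a these were a probe set of the hormone-sensitive lipase Lipe (0.39), the muscle glycogen phosphorylase Pygm (0.41) and the inositol phosphatase Impa2 (0.47), set against a spread of 0.99 for Coro1a itself. The Lipe probe set had deposited signals of 30.4, 70.2 and 7.67 in NASH 1, 2 and 3, against 7.27, 12.01 and 13.3 in Control 1, 2 and 3, so that it too was highest in NASH 2. For Cd48 they were the intermediate filament gene Vim (0.26), the leukocyte tetraspanin Cd53 (0.27) and the thioredoxin inhibitor Txnip (0.28), all 3 highest in NASH 2. Vim had 52.8, 166 and 49.0 in NASH, against 82.3, 62.6 and 45.7 in Control.

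Slfn2 was closest to the fatty acid transporter Cd36 (0.28), the nuclear pore gene Nup107 (0.28) and the kallikrein Klk1 (0.37), and its own spread was 0.89. That Cd36 probe set had deposited signals of 46.5, 50.2 and 27.5 in NASH 1, 2 and 3, against 14.9, 18.6 and 6.85 in Control 1, 2 and 3. No gene of the leukocyte lists was among these 3. The nearest genes of Ptprc (Sult2a1, Sdcbp and Ndufa4l2, 0.056 to 0.057), Klrk1 (Hspb1, St3gal2 and Gphn, 0.085 to 0.097) and Cd4 (Cyp2e1, Psma1 and Bmpr1a, 0.067 to 0.088) lay closer, and these members had spreads of 0.17, 0.31 and 0.25. For the 6-gene mean they were Sult2a6 (0.14), Parp1 (0.16) and Psmb4 (0.18). Among the members, Ptprc and Cd4 were the closest pair (0.22) and Coro1a and Klrk1 the farthest (0.99). The distance is not scaled for spread, so genes that vary little lie close together. The 0.22 was larger than the spread of Ptprc itself, so that this pair is not read as a shared pattern.

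Other leukocyte genes did not pass the test in either direction. Of 155 listed genes of T, B, natural killer, macrophage, neutrophil, dendritic and mast cells and of leukocytes at large, 74 were on the array and 25 lay above the filter. By limma with Benjamini-Hochberg adjustment, 0 of the 25 rose and 0 fell at an adjusted p under 0.05 (lowest 0.508), where 0.133% of all probe sets tested were called (0.0953% higher and 0.0381% lower). At an unadjusted p under 0.05, 2 of the 25 were higher in NASH and 0 lower, where 7.86% of all probe sets passed and 3.81% were higher at that level. The 25 had a median difference of 0.12 (0.066 without NASH 2 and 0.055 without Control 2) and 17 were above 0, against −0.02 and 47.1% for all probe sets tested. The median turned to −0.03 (12 of 25 above 0) on values without scaling, where the median of all probe sets was −0.17, and to −0.03 (11 of 25) without both Control 2 and NASH 2. NASH 2 was the highest array for 9 of the 25. Without the filter, 47 of the 74 genes on the array were above 0, with a median of 0.15 and 0 called. The median of all probe sets was then −0.03.

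The 2 genes with an unadjusted p under 0.05 were Lat and Cd53. Lat, the adaptor that links the T cell receptor to its signalling chain, read 5.45, 5.81 and 5.02 in NASH 1, 2 and 3, against 4.88, 4.35 and 4.60 in Control 1, 2 and 3, with no overlap. In deposited signals the groups overlapped, at 21.97 to 55.8 in NASH and 19.8 to 30.7 in Control. Its difference was 0.82 ± 0.27 (limma adjusted p = 0.508, 0.63 without NASH 2). Cd53, a tetraspanin of leukocytes at large, read 5.20, 6.26 and 5.72 in NASH, against 5.29, 4.81 and 4.84 in Control. NASH 1 lay below Control 1, and the difference was 0.75 ± 0.30 (limma adjusted p = 0.594, 0.49 without NASH 2).

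**Figure D4:**
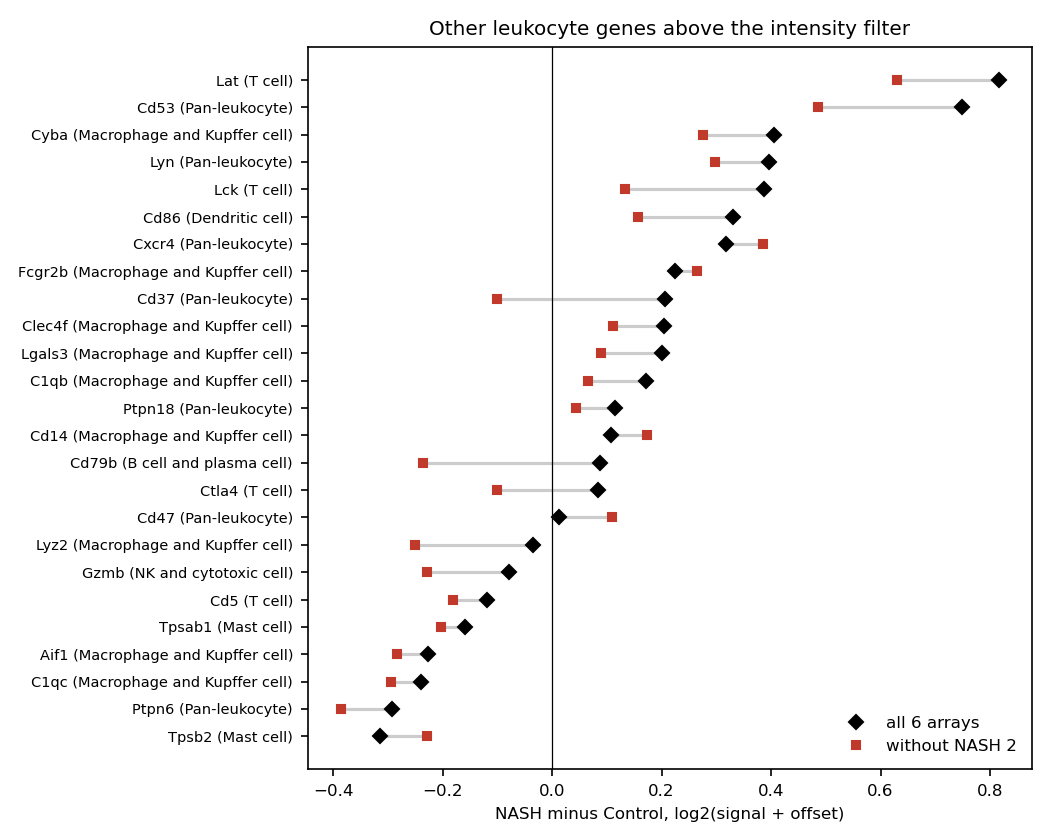
Each row is 1 of the 25 other leukocyte genes above the filter, with its list in parentheses, and the horizontal axis is the NASH minus Control difference in log2(signal + offset), with all 6 arrays (diamond) and without NASH 2 (square). Lat and Cd53 stand highest at 0.82 and 0.75, the other genes lie between −0.31 and 0.41, and 14 of 25 stay above 0 without NASH 2.

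By cell type, T cell genes were sparse. Of 15 on the array, 4 lay above the filter with a median of 0.24 (0.016 without NASH 2), among them the kinase Lck at 0.39 (0.13 without NASH 2), Cd5 at −0.12 and Ctla4 at 0.08 (−0.10 without NASH 2). The CD3 chains Cd3d and Cd3g and the CD8 chains Cd8a and Cd8b lay below it. Their differences were 0.20, 0.51, 0.56 and 0.52 in that order (−0.03, 0.28, 0.56 and 0.61 without NASH 2), with overlapping groups. Deposited signals of Cd3d were 3.81, 6.62 and 1.60 in NASH and 2.28, 4.43 and 2.79 in Control. Those of Cd8a were 4.75, 10.3 and 12.7 in NASH and 4.75, 8.43 and 4.45 in Control. Of 14 natural killer and cytotoxic genes only granzyme B (Gzmb) passed the filter, at −0.08 (−0.23 without NASH 2 and −0.15 without Control 3). The 6 neutrophil genes were all below the filter. S100a8, S100a9, Mmp8 and Mmp9 had higher means in NASH, and Defa5 and Cxcr2 lower ones. Deposited signals of S100a9 were 11.8 to 25.2 in NASH and 2.57 to 19.7 in Control. Those of Defa5 were 2.86 to 7.66 in NASH and 8.92 to 15.8 in Control. Of the B cell genes only Cd79b was measured, at 0.09 (−0.24 without NASH 2 and 0.016 without Control 3).

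Macrophage genes, which the resident Kupffer cells express, were the best measured, with 9 of 13 above the filter and 6 of the 9 above 0. Clec4f, the Kupffer cell lectin, differed by 0.20 ± 0.34 and Lgals3 by 0.20 ± 0.26 (0.11 and 0.090 without NASH 2). Fcgr2b differed by 0.22 ± 0.19 and the complement gene C1qc by −0.24 ± 0.22 (0.27 and −0.29 without NASH 2). The median of the 9 was 0.17 (0.09 without NASH 2), with 0 called. Of mast cell genes Tpsb2 was at −0.31 and Tpsab1 at −0.16, and of dendritic genes Cd86 at 0.33 (0.16 without NASH 2 and 0.20 without Control 3). MHC class II genes, which macrophages and B cells carry, had 8 measured members with a median of 0.07 (−0.18 without NASH 2) and 0 called. Among them Cd74 was at −0.30 ± 0.49 (−0.81 without NASH 2).

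The molecular partners of the 6 genes were also read from lists, and 0 passed the limma test in any of them. Among coronins and Arp2/3 subunits, the actin machinery on which Coro1a acts, 5 were measured with a median of −0.17 (−0.095 without NASH 2 and −0.014 without Control 3). Coro7, a Golgi coronin, had 3.96, 3.37 and 4.24 in NASH 1, 2 and 3, against 4.83, 4.85 and 5.14 in Control 1, 2 and 3, a difference of −1.08 ± 0.30 (limma adjusted p = 0.443), the opposite sign to Coro1a. Among interferon response genes, the setting in which schlafens are induced, 15 were measured with 9 above 0 and a median of 0.09. Slfn5, the only other listed schlafen on the array, differed by 0.51 ± 0.40 (0.11 without NASH 2). Stat2, a transducer of type I interferon, had 5.65, 5.76 and 5.67 in NASH, against 6.19, 6.38 and 6.46 in Control (difference −0.65 ± 0.18, limma adjusted p = 0.443), with no overlap and the opposite sign to Slfn2. Irf1 differed by 0.57 ± 0.34 and Rsad2 by 0.33 ± 0.21 (0.68 and 0.44 without NASH 2). Ifitm3 differed by 0.32 ± 0.24 (0.099 without NASH 2).

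For CD45, 13 genes of a list of CD45 and Src kinase signalling, with other kinases, phosphatases and adaptors, were measured. Of these 7 were above 0, and the median was 0.09 (−0.015 without NASH 2 and −0.025 without Control 3). Jak1 was at 1.00 ± 0.67 (Control 3 alone was low), Ptprj at −0.67 ± 0.33 and Ptpn11 at −0.73 ± 0.48. Of the CD2 and SLAM family, to which Cd48 belongs, only Cd2 was on the array, below the filter at 1.16 to 4.21 in NASH and 1.15 to 3.26 in Control in deposited signals. Of leukocyte recruitment genes, 9 of 20 were measured and 7 were above 0, with a median of 0.10. The chemokine gene Ccl2 was at 0.30 ± 0.24, Selp at 0.18 ± 0.19 and Cx3cl1 at 0.21 ± 0.27 (0.12, 0.15 and 0.077 without NASH 2).

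The instrument records split the arrays in another way. The wash record was filled for NASH 1, NASH 2, Control 1 and Control 3 and blank for NASH 3 and Control 2. Differences among the filled arrays and between the blank ones were 1.79 and 1.57 for Slfn2, 1.65 and 1.10 for Coro1a, 0.94 and 0.64 for Cd48, 0.40 and 0.41 for Klrk1, and 0.44 and 0.20 for Cd4. The Ptprc sets gave 0.35 and 0.13 (M25823), 0.64 and −0.10 (K03039), and 0.74 and 1.18 (M10072). The sign was the same in both for all but the K03039 set. Choosing the genes on this contrast favours such agreement, and the blank part sets 1 array against 1, so nothing is read from it. Among the filled arrays both NASH hybridizations were recorded later than both Control ones, so that this step and diet cannot be told apart there.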

How the data were processed

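Each array's deposited values are linear intensities, 1 for a probe set, made by the authors with MAS5 according to the submitters' processing notes. Its version and scaling target were not given in the sources used here. Detection calls were not analysed here. All arrays were of 1 chip type and lot, per the file headers. Because trimmed means differed between arrays, the 6 arrays were quantile normalized and put on a log2 scale after adding 2.21, the 10th percentile of the deposited values. The array's 59 control probe sets (of 8799) did not enter the fit, and the 5244 with a mean above the 40th percentile (3.94) were tested. The platform annotation gave 1 symbol for 7006 probe sets, several for 308 and none for 1426, and the RefSeq gene table changed 0 symbols.

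NASH and Control were compared with limma 3.58.1 in R 4.3.3 (lmFit, eBayes with trend, residual degrees of freedom 4, prior 3.90), and calls had a Benjamini-Hochberg adjusted p under 0.05. The fit was tested on simulated data, where 35.7% of probe sets shifted 2-fold and 78% of those shifted 4-fold were recovered. A list with 0 called can therefore still hold changes of 2-fold. With 3 arrays a group, the number of arrays limits the precision. A gene of the lists was read at its brightest probe set above the filter. The text names all members, the 3 nearest genes of each, up to 4 genes of each list with the smallest p, and cell markers by level. Slfn5 was added as a relative of Slfn2. Results of the cell type and pathway lists were used where they bear on the members. The members and lists were chosen with earlier results of these data known. Groups were taken from sample titles, since the free-text description repeats the first Control sample for all.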

Additional observations from a re-analysis of the deposited data

How the results depend on the processing

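The median difference of the 6 genes, 0.62, stayed above 0 under all 16 alternatives, and within the spread between replicates in 15. Since the genes were chosen for higher values in NASH in these arrays, a median above 0 was favoured in advance. Adding the replicate number or the wash record as a term, both among the 16, could not change the 6-gene median, since each was balanced over the diets. The median was 0.33 without both NASH 2 and Control 3 (added after seeing the data), and 0.43 to 0.84 when 1 array was left out. Of single probe sets, the sign turned only for the K03039 set of Ptprc, to −0.082 without both Control 2 and NASH 2. The median of the other leukocyte genes, 0.12, turned to −0.029 without scaling and to −0.033 without both Control 2 and NASH 2, and was 0.06 to 0.21 with 1 array left out. Of these genes 0 were called by limma, and 2 at an unadjusted p under 0.05.

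The number of probe sets called across the array, 7 (5 higher in NASH), was 14 without scaling (8 higher), 0 without the filter (633 at an unadjusted p under 0.05), 3 without the intensity trend, 18 with array weights, 3 with the wash record as a term, 16 without both Control 2 and NASH 2, 1 on arrays with a filled wash record and 11 without both NASH 2 and Control 3 (these last 2 added after seeing the data), and 412 at an unadjusted p. With 1 array left out it was 0 to 17, the 17 without NASH 2. With the replicate number as a block it was 1, while the 6-gene median of 0.62 was bound to stay the same. Deviations of same-numbered arrays correlated at 0.05, −0.02 and 0.07, and NASH 1 correlated best with Control 2, so the numbers were not taken to pair arrays. Most members lie at moderate intensity, but the Control mean of Coro1a lay below the filter value. Signal over background could not be judged without detection calls.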
